A study of Mus musculus with 8 samples.

Results

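Retinoic acid is made from vitamin A inside tissues and acts through nuclear receptors, and 9 genes of its receptors and metabolism were followed here in fetal mouse hearts with and without the type 3 deiodinase (DIO3). They were chosen by symbol and comprised the receptors *Rara*, *Rarb* and *Rarg*, the retinol transporter *Stra6*, the retinol dehydrogenase *Rdh10*, the retinal reductase *Dhrs3*, the cytoplasmic binding proteins *Crabp1* and *Crabp2*, and the degrading enzyme *Cyp26b1*. All 9 were found among the 26590 gene symbols of the deposited table, and each was read from its best expressed transcript row, averaged over both genotypes. Total RNA of 4 Dio3+/+ (wild-type) and 4 Dio3-/- hearts, each from an individual fetus on a C57BL/6J background, was sequenced after removal of ribosomal RNA. Dio3-/- fetuses lack DIO3, the enzyme that inactivates thyroid hormones, in all tissues. The design text calls the hearts male. No other allele or treatment is named for these hearts. The titles give E13.5 for all 8 hearts, but the age field gives E18.5 for 2 of them, Dio3-/- hearts 3 and 4, and the Methods give a later day than the titles. The labels do not say which hearts were littermates.

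The deposited table holds, per transcript row, the authors' genotype means, read as RPKM (read number relative to transcript length and library size), and the coefficient of variation (CV) between the 4 hearts, which is their SD divided by their mean. It gives no value for a single heart and no read total, so the depth of each library cannot be read from it, and the Methods give aligned reads only for all samples together. Levels below are these means, each with its CV in parentheses. Differences are log2 changes, that is log2 fold changes of RPKM + 0.5, Dio3-/- over Dio3+/+, a scale that understates the change of low genes. Genes were called changed where limma gave an adjusted *P* value under 0.05, the adjustment covering all 32703 rows that exceeded 1 RPKM in either genotype.

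As background, retinol enters cells with the help of STRA6, is oxidized to retinal by RDH10 and further to retinoic acid by the ALDH1A enzymes, and DHRS3 converts retinal back to retinol. CRABP1 and CRABP2 carry retinoic acid in the cytoplasm, CYP26 enzymes clear it, and RARs bind DNA as heterodimers with RXRs, the partners that thyroid hormone receptors also use. In the fetal heart the epicardium, which expresses *Aldh1a2*, is a known source of retinoic acid, and both too little and too much of it disturb the growth of the ventricular wall.

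*Rarb* is itself a known target of the receptors, through a response element in its promoter. That element is shown here because it is the only match in the windows searched for the 9 genes, and beside it the match in *Cyp26a1*, the gene of another retinoic acid degrading enzyme. Each stretch covers the 150 bases before the RefSeq transcript start on GRCm38.p6, 5′ to 3′ on the strand of the gene, chr14:16575477-16575626 on the minus strand for *Rarb* and chr19:37697658-37697807 on the plus strand for *Cyp26a1*. Capitals mark the direct repeat of hexamers with a spacer of 5 bases.
Rarb: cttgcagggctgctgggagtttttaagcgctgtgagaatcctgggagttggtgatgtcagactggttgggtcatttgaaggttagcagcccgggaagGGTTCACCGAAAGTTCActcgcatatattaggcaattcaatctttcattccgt
Cyp26a1: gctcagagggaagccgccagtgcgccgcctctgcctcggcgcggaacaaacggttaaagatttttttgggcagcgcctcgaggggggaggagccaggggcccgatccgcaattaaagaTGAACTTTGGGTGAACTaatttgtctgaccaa

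The search took any pair, in the same orientation and on both strands, of the consensus hexamer AGGTCA, its variant AGTTCA, the variant GGTTCA that opens the *Rarb* repeat, or the variant GGGTCA, in windows from 250 bases before to 50 after each RefSeq start. In *Rarb* the repeat lay 53 to 37 bases before the start on the plus strand of the window, and in *Cyp26a1* 32 to 16 bases before it on the opposite strand. A spacer of 5 occurred in 0.0974% of all 32851 windows. Windows were at hand for 7 of the 9 genes (16 windows). None of the 16 held a spacer of 1 or 2 bases, which occur in 0.222% and 0.268% of windows and are also bound by RARs, or a spacer of 4, the arrangement bound by thyroid hormone receptors, which occurs in 0.0822%. These letters in this window are a description and not evidence that a receptor binds there. In the hearts, *Rarb* had 10.66 RPKM (CV 0.13) in wild-type and 10.73 RPKM (0.04) in Dio3-/-, whereas *Cyp26a1*, with the same kind of repeat, had 0.32 RPKM (0.76) and 0.27 RPKM (0.57) and was too low to be tested.

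Markers of tissues other than the heart varied between hearts. Transcripts of skeletal muscle, bone and body wall spread widely between wild-type hearts. Of 12 skeletal muscle genes 10 had a CV above 0.5 in wild-type hearts (highest 1.62), as did 10 of 12 bone and cartilage genes (highest 1.54) and 7 of 8 genes of limb and body wall mesenchyme (highest 1.60). These 3 lists were written after the table had been seen. Of their genes *Ibsp*, a bone matrix protein, was called lower in Dio3-/- hearts (adjusted *P* = 0.033 by limma), as were 0.382% of all genes tested. It had 11.25 RPKM (1.54) in wild-type and 0.03 RPKM (0.59) in Dio3-/- hearts, and passed the filter only through the wild-type hearts. The highest wild-type heart held at least 69.2% of the summed level of the 4, and the SD approximation behind the call is poorer at such a spread. *Myog*, a factor of skeletal muscle differentiation, had 9.78 RPKM (1.56) in wild-type and 1.17 RPKM (0.86) in Dio3-/- hearts. *Runx2*, a factor of bone formation, had 1.72 RPKM (1.43) and 0.23 RPKM (0.13), and also passed the filter only through the wild-type hearts. Summed levels were 66.96 and 35.88 RPKM for bone and cartilage, 46.71 and 27.82 RPKM for limb and body wall, and 228.61 and 249.42 RPKM for skeletal muscle. The last is mostly *Acta1*, with 113.76 RPKM (0.17) and 149.79 RPKM (0.05), and *Ckm*, with 50.4 RPKM (0.33) and 87.79 RPKM (0.23). The fetal heart also expresses both. Without *Acta1* the other 11 skeletal muscle genes, *Ckm* among them, summed to 114.85 and 99.63 RPKM. The bone and cartilage sum is mostly *Sox9*, with 31.25 RPKM (0.46) and 24.17 RPKM (0.07), and *Col2a1*, with 15.73 RPKM (0.52) and 8.40 RPKM (0.09). *Prrx2* was the highest limb and body wall gene in both genotypes and varied little, with 21.76 RPKM (0.02) and 20.17 RPKM (0.04). The part of the heart's own cells in these sums was not tested. The mean was lower in Dio3-/- hearts for 9 of the 12 skeletal muscle genes and higher for 3, including *Acta1* and *Ckm*. It was lower for 9 of the 12 bone and cartilage genes and higher for 3, and lower for all 8 limb and body wall genes. Over all genes tested the mean was lower for 36.1%. No marker of the 3 lists was listed at 0 in either genotype. Hepatocyte genes went the other way, with summed levels of 22.68 RPKM in wild-type and 119.32 RPKM in Dio3-/- hearts over 8 genes, all 8 higher in Dio3-/- hearts, none at 0 in either genotype and all with a CV above 0.5 in Dio3-/- hearts. The 8 cardiomyocyte genes summed to 11460 and 13424 RPKM, with CVs up to 0.18, all 8 with a higher mean in Dio3-/- hearts and none called, and the 10 epicardial genes to 151.71 and 163.16 RPKM, with CVs up to 0.24. *Dio3* had 0.35 RPKM (1.23) and 0.13 RPKM (0.76), too low to check the genotype labels.

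None of the 9 retinoic acid genes was called changed in Dio3-/- hearts. Over all 14657 genes tested, taking the row with the highest mean, 2.29% were called, 0.382% lower and 1.91% higher in Dio3-/- hearts. None of the other transcript rows of the 9 genes was called either, against 2.15% of all rows tested. At an unadjusted *P* value under 0.05, *Crabp1* and *Crabp2* passed, 2 of 9, against 19.7% of all genes. An unequal-variance test of the linear means called none of the 9 and had none at an unadjusted *P* value under 0.05. The mean was lower in Dio3-/- hearts for 7 of the 9 genes (*Rara* and *Rarb* also turned negative when the median log2 ratio of all rows was removed, which shifts every gene down by 0.038), as it was for 36.1% of all genes, and the median log2 change was −0.43 for the 9 and 0.04 for all genes. In whole hearts, fewer cells of a type and less RNA per cell cannot be told apart.

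**Figure D1:**
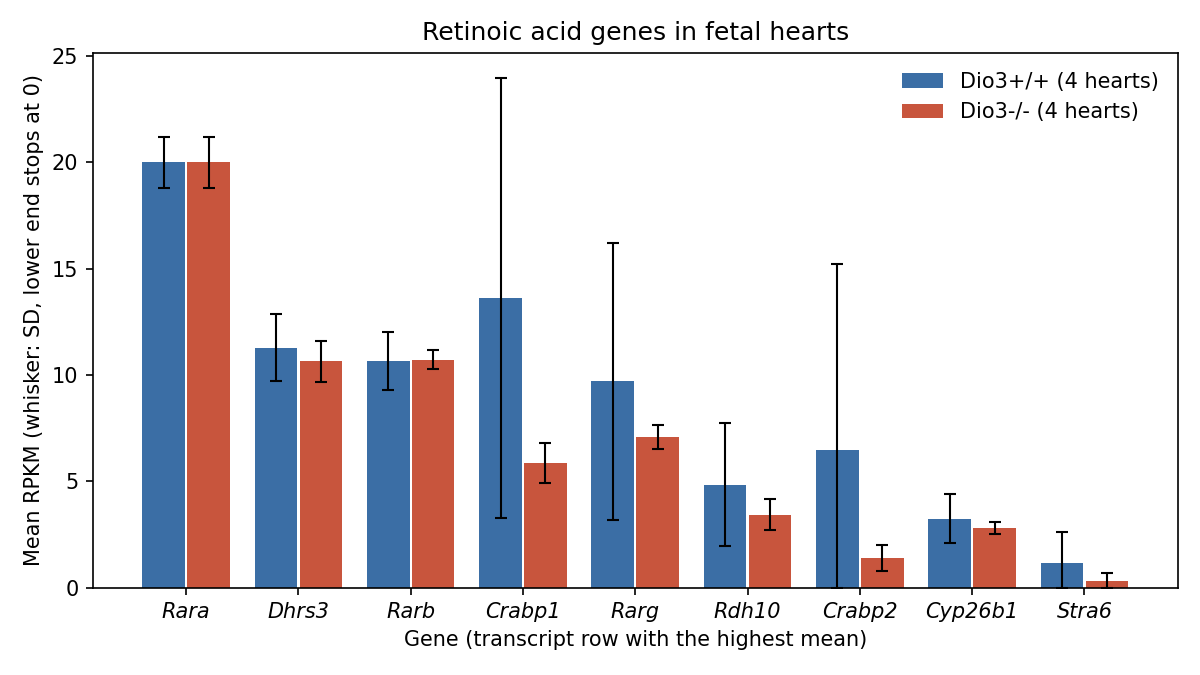
Mean RPKM of the 9 genes in Dio3+/+ (blue) and Dio3-/- hearts (red), 4 hearts each. Bars are the authors' means and whiskers the SD from their CV, stopped at 0 where the SD exceeds the mean. *Rara*, *Rarb* and *Dhrs3* stand at like heights with short whiskers, and the whiskers of *Crabp1*, *Rarg*, *Rdh10*, *Crabp2* and *Stra6* are long in wild-type hearts.

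The 3 receptors together had the highest summed level. *Rara* had the highest level of the 9 genes, with 20.00 RPKM (CV 0.06) in wild-type and 20.01 RPKM (0.06) in Dio3-/- hearts, above 85.5% of all gene symbols. Its log2 change was 0.00070 with an SE of 0.060, and the 95% confidence interval ran from −0.13 to 0.14. All 5 *Rara* rows lay between 16.41 and 20.00 RPKM in wild-type hearts, and their log2 changes were between −0.012 and 0.0038. In every row the gap between the genotype means was smaller than the SD within either genotype.

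*Rarb* was not called either. The log2 change of its highest row was 0.0090 (SE 0.085, 95% confidence interval −0.18 to 0.20, adjusted *P* = 0.970 by limma). Its 6 rows differed in level from 1.48 to 10.66 RPKM in wild-type hearts. A second row was almost as high as the first, with 10.59 RPKM (0.13) in wild-type and 10.63 RPKM (0.04) in Dio3-/- hearts. The other 4 were lower, and 3 of these had CVs of 0.25 to 0.27 in both genotypes. The log2 changes of the 6 rows lay between −0.16 and 0.084, and none was called. The rows carry UCSC transcript identifiers and were not assigned to the receptor isoforms here.

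*Rarg*, the third receptor and the one known from cartilage and skin, had a wider spread between wild-type hearts. It had 9.70 RPKM in wild-type hearts and a CV of 0.67, against 7.08 RPKM and a CV of 0.08 in Dio3-/- hearts. Its other row had 9.11 RPKM (0.69) and 6.38 RPKM (0.08). The log2 change of the higher row was −0.43 (SE 0.37, 95% confidence interval −1.26 to 0.40, adjusted *P* = 0.588 by limma), so the gap lay within the spread of the wild-type hearts. A mean and an SD of 4 non-negative values limit the highest of them. For *Rarg* the highest wild-type heart had at least 12.9 and at most 19.5 RPKM, and the highest Dio3-/- heart at most 7.99 RPKM. At least 1 wild-type heart therefore lay above every Dio3-/- heart, which says nothing of the other wild-type hearts. The bounds gave the same for *Rdh10*, *Stra6*, *Crabp1*, *Crabp2* and *Cyp26b1*. The share of all genes for which this holds was not computed, so it cannot be read as particular to these genes. The CV was larger in wild-type than in Dio3-/- hearts for 65.4% of all genes tested.

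By these means *Rara* made up 49.6% of the summed RAR level in wild-type and 52.9% in Dio3-/- hearts, *Rarb* 26.4% and 28.4%, and *Rarg* 24.0% and 18.7%. Approximate SDs of these shares between hearts were computed with the genes taken as independent. They were 8.30 and 1.80 percentage points for *Rara*, 5.01 and 1.29 for *Rarb*, and 12.3 and 1.37 for *Rarg*. For each receptor the gap between the genotypes was smaller than the wild-type SD. When all rows of each gene were summed (5 of *Rara*, 6 of *Rarb* and 2 of *Rarg*), the *Rarg* share was 13.1% and 9.77%. The sum of the 3 receptors was 40.36 RPKM in wild-type and 37.82 RPKM in Dio3-/- hearts. Among their partners, *Rxra* had 14.74 RPKM (0.15) and 14.23 RPKM (0.05), and *Rxrb* 11.07 RPKM (0.10) and 11.72 RPKM (0.02). *Rxrg*, which skeletal muscle expresses, had 1.38 RPKM (1.02) and 0.50 RPKM (0.18), and passed the filter only through the wild-type hearts. None of the 3 was called (adjusted *P* from 0.308 to 0.833 by limma).

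Of the 3 genes of retinol uptake and conversion among the 9, *Dhrs3* had the highest level and the lowest CVs. It had 11.28 RPKM (0.14) in wild-type and 10.64 RPKM (0.09) in Dio3-/- hearts, a log2 change of −0.081 (SE 0.10, 95% confidence interval −0.30 to 0.14, adjusted *P* = 0.722 by limma). All 4 of its rows were lower in Dio3-/- hearts, by log2 changes from −0.13 to −0.069, and none was called. *Dhrs3*, like *Rarb*, is known to rise with retinoic acid.

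*Rdh10*, the enzyme of the rate-limiting first oxidation, had a single row with 4.84 RPKM (0.60) in wild-type and 3.43 RPKM (0.21) in Dio3-/- hearts. Its log2 change of −0.44 (SE 0.33, adjusted *P* = 0.525 by limma) was within the spread between hearts. The highest wild-type heart had at least 6.27 RPKM and the highest Dio3-/- heart at most 4.54 RPKM.

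*Stra6*, the membrane receptor for the retinol carrier, was the lowest of the 9 genes and passed the filter only through the wild-type hearts. It had 1.14 RPKM (1.29) in wild-type and 0.33 RPKM (1.13) in Dio3-/- hearts. A CV of this size means that the highest heart held at least 56.0% of the summed level of the 4 wild-type hearts and at least 48.7% of that of the 4 Dio3-/- hearts. The log2 change was −0.98 (SE 0.58, 95% confidence interval −2.29 to 0.32, adjusted *P* = 0.412 by limma). The other 3 rows tested had values within 0.1 RPKM of this one in both genotypes, and a row at 0.15 and 0.05 RPKM was not tested.

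Both cytoplasmic binding proteins had lower means in Dio3-/- hearts and wide spreads between wild-type hearts. *Crabp1*, a gene known from neural crest and connective tissue progenitors, had 13.61 RPKM (0.76) in wild-type and 5.85 RPKM (0.16) in Dio3-/- hearts. Its log2 change was −1.15 (SE 0.43, 95% confidence interval −2.12 to −0.19, adjusted *P* = 0.188 by limma). *Crabp2*, which passes retinoic acid on to the receptors, had 6.46 RPKM (1.36) and 1.38 RPKM (0.44), a 4.68-fold lower mean in Dio3-/- hearts. Its log2 change was −1.89 (SE 0.75, 95% confidence interval −3.57 to −0.21, adjusted *P* = 0.212 by limma). The intervals are not adjusted for the number of genes, and neither gene passed the adjusted threshold.

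For *Crabp2* the highest wild-type heart had at least 15.3 RPKM, that is at least 59.4% of the summed level of the 4 hearts, and the highest Dio3-/- heart had at most 2.31 RPKM. For *Crabp1* the highest wild-type heart had at least 19.4 RPKM, between 35.7% and 53.7% of the summed level, and the highest Dio3-/- heart at most 7.30 RPKM. Of the summed level of both genes, *Crabp1* was 67.8% in wild-type and 80.9% in Dio3-/- hearts. The approximate SD between hearts, with the genes taken as independent, was 34.0 percentage points in wild-type and 7.23 in Dio3-/- hearts. The gap between the shares was smaller than the wild-type SD. The neural crest and neuron markers, from cells that are also known to express *Crabp1*, summed to 8.66 and 9.65 RPKM, with *Sox10* at 0.67 RPKM (0.55) and 0.48 RPKM (0.18).

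*Cyp26b1*, the CYP26 enzyme with the highest level in these hearts, had 3.25 RPKM (0.36) in wild-type and 2.79 RPKM (0.10) in Dio3-/- hearts. Its log2 change was −0.19 (SE 0.19, 95% confidence interval −0.62 to 0.25, adjusted *P* = 0.656 by limma). Its 3 rows lay between 3.03 and 3.25 RPKM in wild-type and between 2.59 and 2.79 RPKM in Dio3-/- hearts, and none was called.

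The order of the levels differed between genotypes by the variable genes. In Dio3-/- hearts it was *Rara*, *Rarb*, *Dhrs3*, *Rarg*, *Crabp1*, *Rdh10*, *Cyp26b1*, *Crabp2* and *Stra6*. There *Rarb* and *Dhrs3*, *Rarg* and *Crabp1*, and *Rdh10* and *Cyp26b1* differed by less than the sum of their SDs, and the other 5 neighbouring pairs by more. In wild-type hearts *Crabp1* came second and *Crabp2* sixth, and all 8 neighbouring pairs differed by less than the sum of their SDs.

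The 9 genes differed widely in their spread between wild-type hearts. In 5 of the 9 genes (*Rarg*, *Rdh10*, *Stra6*, *Crabp1* and *Crabp2*) the CV was above 0.5 in wild-type hearts, against 2.65% of all genes tested. In Dio3-/- hearts this was so for *Stra6* alone, 1 of 9, against 1.06% of all genes. The CV was larger in wild-type than in Dio3-/- hearts for 8 of the 9, and for 65.4% of all genes. The same 5 genes, and no other of the 9, had a wild-type mean more than 1.3 times the Dio3-/- mean, as 4.67% of all genes had. Both limits were chosen after the values were seen. A high wild-type heart raises both the CV and the mean of its group, so these counts are not independent of each other. The skeletal muscle, bone and body wall markers given above had their wide spread in the same 4 hearts, although genotype means do not show which heart was high, and their part in the values of the 5 genes was not tested.

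**Figure D2:**
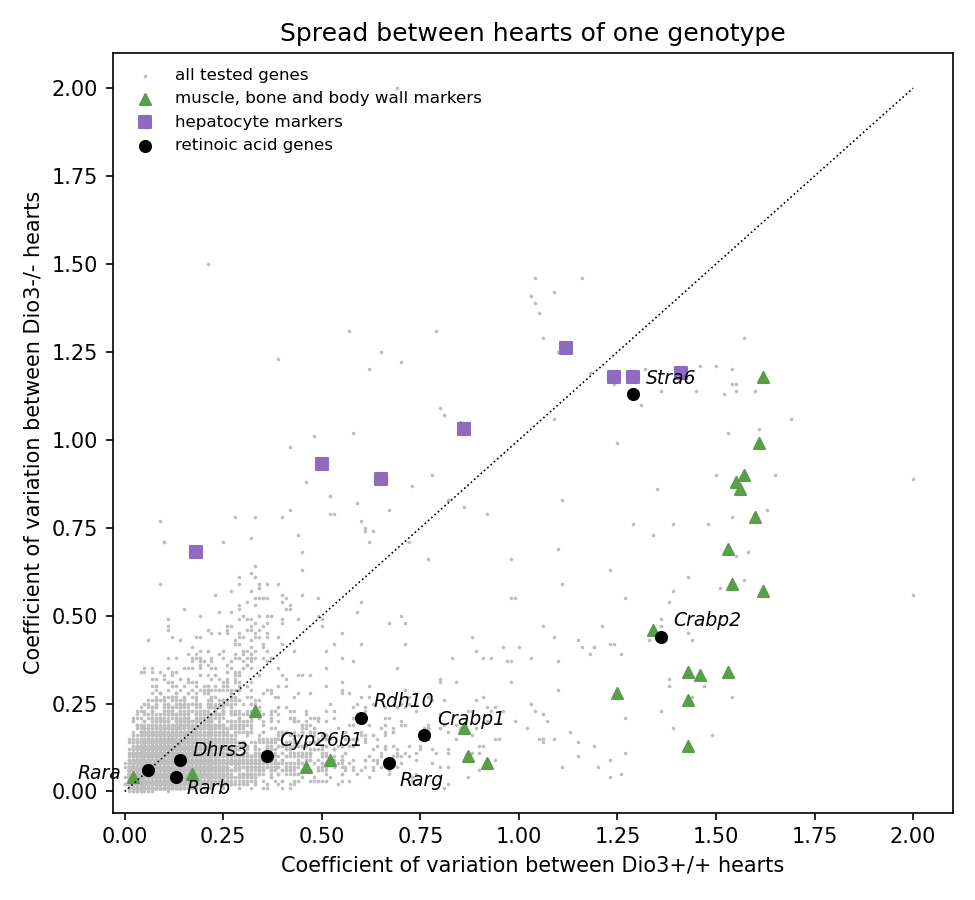
Coefficient of variation between wild-type hearts (x axis) against that between Dio3-/- hearts (y axis) for all tested genes (grey), the 9 retinoic acid genes (black), hepatocyte markers (purple squares) and skeletal muscle, bone and body wall markers (green triangles). The dotted line marks equal values. *Rarg*, *Rdh10*, *Crabp1* and *Crabp2* lie to the right of 0.5 and below the line, on the side of most muscle, bone and body wall markers, and hepatocyte markers lie higher on the y axis.

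The other genes of the pathway were listed by function, 39 in all, and 20 of them were above the limit for testing. Among these 20, 2 were called, both higher in Dio3-/- hearts, where 1.91% of all genes were called higher. The median log2 change of the 20 was 0.071. *Dhrs7*, a short-chain reductase for which retinal is among several reported substrates, had 10.83 RPKM (0.11) in wild-type and 17.50 RPKM (0.12) in Dio3-/- hearts. It rose by a log2 change of 0.67 (SE 0.098, adjusted *P* = 0.010 by limma and 0.138 by the unequal-variance test). *Aldh1a1*, an enzyme that oxidizes retinal to retinoic acid, rose from 1.21 RPKM (0.07) to 1.84 RPKM (0.12), a log2 change of 0.45 (SE 0.096, adjusted *P* = 0.048 by limma). Its adjusted *P* value was above 0.05 in 5 of the 9 alternatives that tested it, where it ran from 0.053 to 0.168.

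*Aldh1a2*, the main retinoic acid making enzyme of the heart and an epicardial marker, had 14.06 RPKM (0.11) and 15.74 RPKM (0.08), with a log2 change of 0.16 (SE 0.085, adjusted *P* = 0.361 by limma). *Aldh1a3*, with 1.24 RPKM (1.54) and 0.21 RPKM (0.27), had the wide wild-type spread of *Crabp2* and passed the filter only through the wild-type hearts. The serum carrier *Rbp4*, which the liver makes, had 0.60 RPKM (0.81) and 2.94 RPKM (1.07), and its partner *Ttr* had 0.65 RPKM (0.86) and 2.41 RPKM (1.03). Neither was called (adjusted *P* = 0.167 and 0.242 by limma), and both passed the filter only through the Dio3-/- hearts, where their means were higher. *Ttr* is also in the hepatocyte list above, and the part of liver transcripts in both was not tested. Of the dehydrogenases, *Adh5* had the highest level, with 44.61 RPKM (0.05) and 45.01 RPKM (0.04). *Fabp5*, which can also carry retinoic acid, had 100.85 RPKM (0.07) and 110.76 RPKM (0.14). Of the degrading enzymes outside the 9 genes, *Cyp2s1* was the highest, with 2.05 RPKM (0.11) and 1.74 RPKM (0.13), and of the carotenoid cleaving enzymes *Bco1*, with 0.84 RPKM (0.26) and 0.82 RPKM (0.10), which was not tested. The 15 tested pathway genes with CVs of at most 0.5 in both genotypes had log2 changes from −0.19 to 0.67, with *Dhrs7* at the top.

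**Figure D3:**
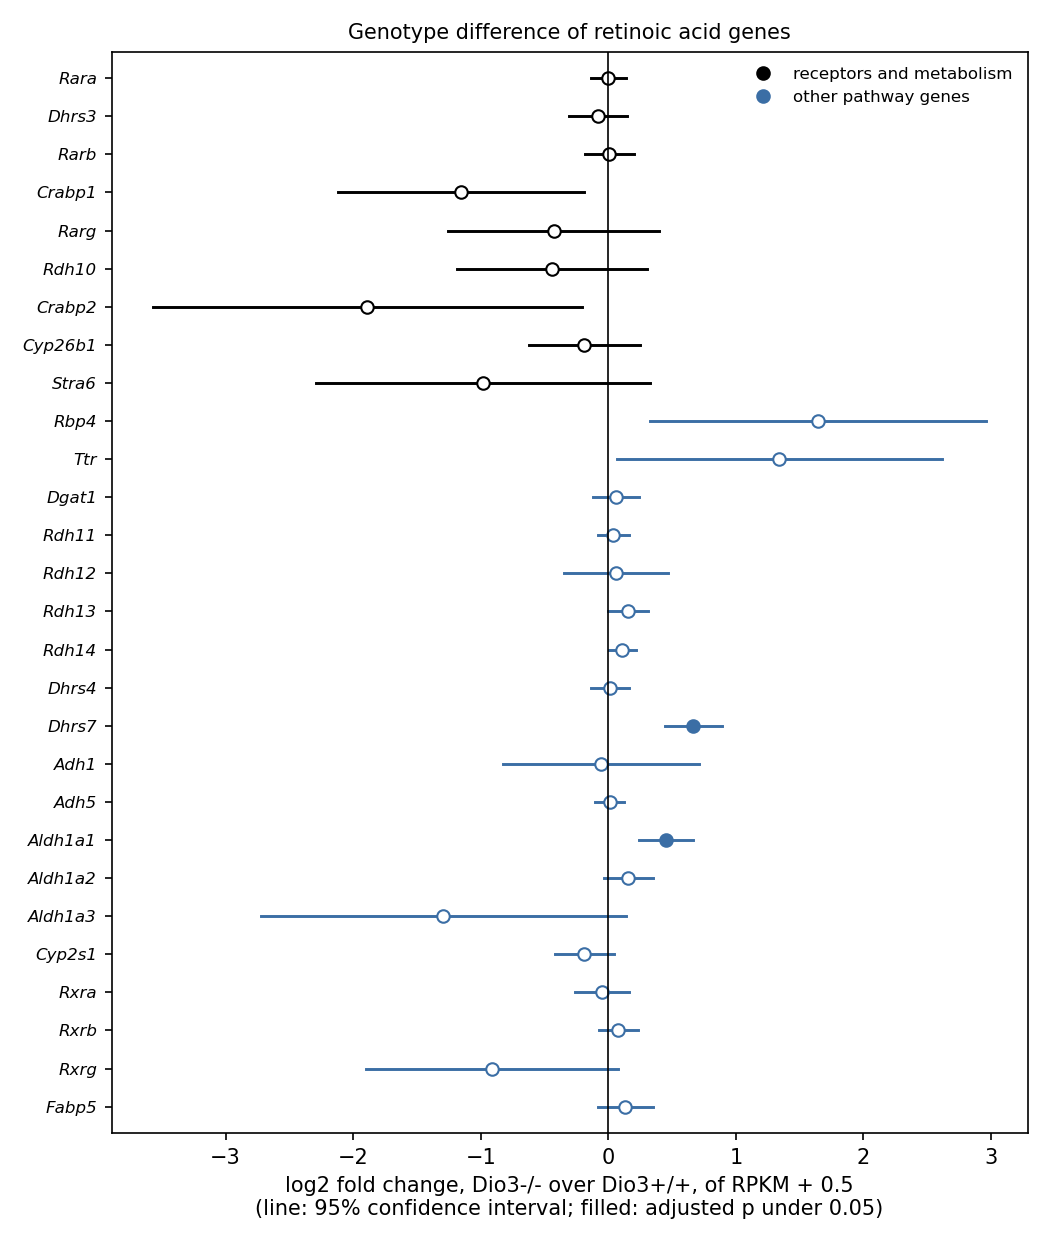
Log2 change (Dio3-/- over Dio3+/+, of RPKM + 0.5, x axis) of the 9 genes (black) and the other tested genes of the pathway that are reported here (blue). Lines are unadjusted 95% confidence intervals and filled points have an adjusted *P* value under 0.05 by limma, which only *Dhrs7* and *Aldh1a1* reached. Intervals are narrow around 0 for *Rara*, *Rarb* and *Dhrs3* and wide for *Crabp1*, *Crabp2*, *Stra6*, *Rbp4*, *Ttr* and *Aldh1a3*.

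Genes known to respond to retinoic acid were listed as well, 28 in all, of which 17 were tested. None was called by limma or by the unequal-variance test, and 2 of the 17 (*Tgm2* and *Bhlhe40*) had an unadjusted *P* value under 0.05 by limma, against 2.29% called and 19.7% at the unadjusted threshold over all genes. *Tgm2*, a transglutaminase induced by retinoic acid in many cells, had 108.49 RPKM (0.15) in wild-type and 134.04 RPKM (0.07) in Dio3-/- hearts (adjusted *P* = 0.142 by limma). *Bhlhe40*, a transcriptional repressor, had 11.29 RPKM (0.16) and 15.03 RPKM (0.10), with an adjusted *P* value of 0.094 by limma. *Meis2*, a HOX cofactor, had 31.75 RPKM (0.07) and 32.66 RPKM (0.04).

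The HOX genes of the list set positions along the body axis. Of 13 listed, 7 were tested, and all 7 had a lower mean in Dio3-/- hearts and a CV above 0.5 in wild-type hearts. The highest in wild-type hearts was *Hoxb3*, with 3.66 RPKM (1.06) in wild-type and 1.78 RPKM (0.47) in Dio3-/- hearts. The 7 genes had log2 changes from −1.13 to −0.087 and adjusted *P* values from 0.391 to 0.938 by limma, so none differed beyond the spread between hearts. The summed bone and body wall markers were lower in the same direction, and their part in the HOX values was not tested.

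**Figure D4:**
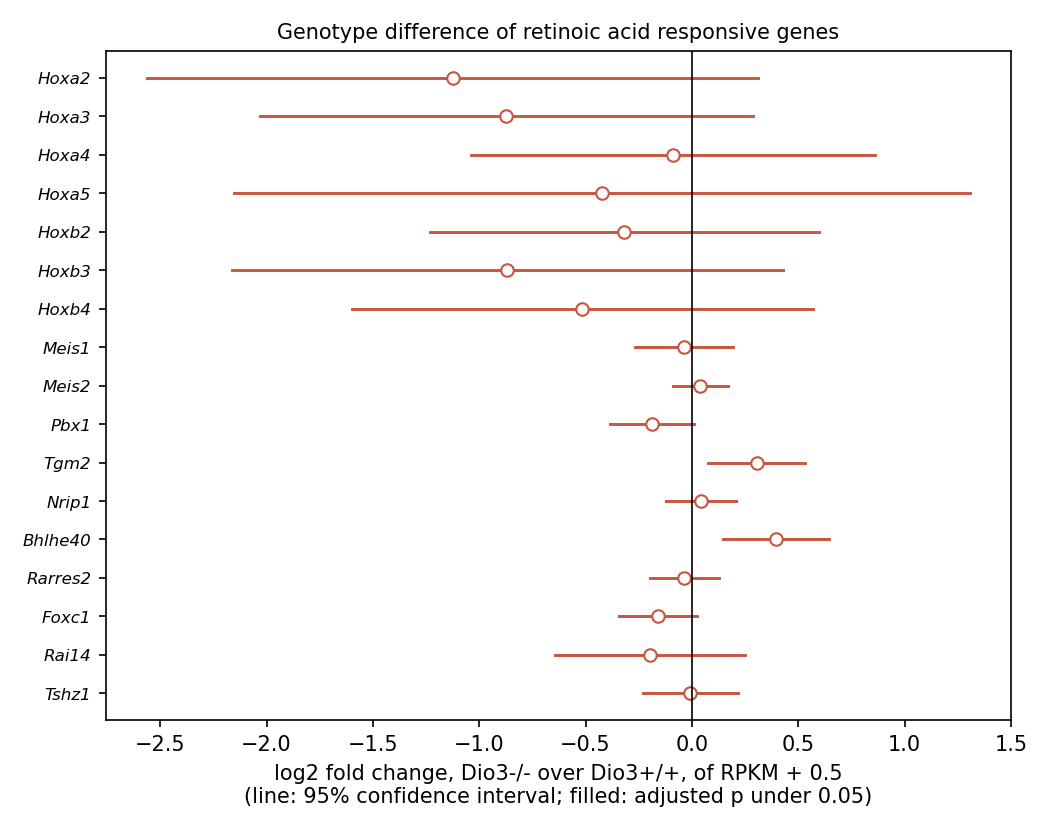
Log2 change (Dio3-/- over Dio3+/+, of RPKM + 0.5, x axis) of the 17 tested retinoic acid responsive genes, with unadjusted 95% confidence intervals as lines. All points are open, since no adjusted *P* value was under 0.05, and the 7 HOX genes at the top have the widest intervals.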

How the data were processed

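Total RNA of 4 Dio3+/+ and 4 Dio3-/- hearts was sequenced for the authors, who aligned the reads with Novoalign 2.08, kept uniquely mapping reads and brought all libraries by linear scaling to the size of the smallest. Which genome build served is not given in the sources used here. The deposited table has 51414 transcript rows with the authors' mean RPKM of each genotype, rounded to 2 decimals, in a column whose header names no unit (RPKM is the unit of the Methods). It also has a deposited ratio, the coefficient of variation of the 4 hearts. Columns with the authors' fold change and *q* value were not used. The depth per sample cannot be read from these values.

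For each row, log2(mean + 0.5) was taken, its SD was approximated from the coefficient of variation, and limma 3.58.1 (R 4.3.3) shrank the pooled variance, which had 6 residual degrees of freedom, toward a mean-variance trend worth 3.52 prior degrees of freedom. Benjamini-Hochberg adjustment covered 32703 rows. Wide spreads make this approximation poorer. *P* values set the genotype difference against this shrunken spread between hearts, each from its own fetus. Which of them were littermates is not known.

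Alternatives were smaller and larger pseudocounts, no filter and a stricter one, no trend, 1 row per gene, an unequal-variance test of the linear means, removal of the median log2 ratio, coefficients of variation raised by their rounding error and, added after the data were seen, rows of wide spread left out. The limits on the highest heart follow from the mean, the coefficient of variation and 4 non-negative values, each taken at its rounding limit. The largest coefficient of variation in the table is 2, the value of a sample SD when 1 of 4 hearts has all reads. Promoter windows came from RefSeq (GRCm38.p6). The members, lists, rule and tests were chosen with earlier results of these data known. Named were the 9 members, *Dio3*, called genes of the pathway and responsive lists, the gene with the highest level of each functional class of the pathway list, and genes defining the marker lists. A gene of the pathway list that this rule selects is not reported here, though the counts of the list include it. *Rxrb*, *Rxrg*, *Aldh1a3*, *Rbp4*, *Cyp26a1*, *Tgm2*, *Bhlhe40*, *Meis2* and *Hoxb3* were named after their values were seen, as were the skeletal muscle, bone and body wall lists. Genes of like pattern were not named, since 2 genotype means give no profile. Python 3.11.15 was used for summaries.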

Additional observations from a re-analysis of the deposited data

How the results depend on the processing

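None of the 9 genes was called in any of the 10 alternatives, but 4 of them (*Stra6*, *Rdh10*, *Crabp2* and *Cyp26b1*) were not tested with a mean over both genotypes above 5 RPKM, and *Rarg*, *Rdh10*, *Stra6*, *Crabp1* and *Crabp2* were not tested when rows with a CV above 0.5 were left out, an alternative chosen after seeing the data. Over the alternatives the adjusted *P* value of *Crabp1* ran from 0.150 to 0.594 and that of *Crabp2* from 0.185 to 0.677. Removing the median log2 ratio over all rows, a shift of 0.038, turned *Rara* (−0.037), *Rarb* (−0.029), *Dhrs4* (−0.024) and *Adh5* (−0.025) negative. The number of genes called over all rows was 379, and 221 without an expression filter, 197 with centring, 206 with each CV raised by 0.005 and 32 with the unequal-variance test. Of the other pathway genes 2 were called, and 1 without an expression filter, with a mean above 5 RPKM, with 1 row per gene, with centring or with raised CVs, and 0 with the unequal-variance test (4 at an unadjusted *P* value under 0.05). With a mean above 5 RPKM *Aldh1a1* was not tested. With all rows of each gene summed, *Rara* made up 64.7% of the RAR level in Dio3+/+ and 67.5% in Dio3-/- hearts, *Rarb* 22.7% in Dio3-/- hearts and *Rarg* 9.77% in Dio3-/- hearts. This sum takes in 5 rows of *Rara*, 6 of *Rarb* and 2 of *Rarg*, so the shares depend on the number of rows listed per gene. The cause of the other shifts was not tested. No paired analysis was possible because the table used here gives genotype means without values for single hearts, and for the same reason no heart was left out in turn, including Dio3-/- hearts 3 and 4.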

Other observations

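The 6 endothelial genes summed to 240.51 RPKM in wild-type and 257.79 RPKM in Dio3-/- hearts, the 6 mesenchymal genes to 696.9 and 621.63 RPKM, and the 4 smooth muscle genes to 664.12 and 779.65 RPKM, with none called. Within the mesenchymal list, *Pdgfra* and *Lum* had a CV of 0.55 between wild-type and at most 0.10 between Dio3-/- hearts. The 5 erythroid genes summed to 471.67 and 202.37 RPKM with none called. Among 4 tested neural crest and neuron genes, *Tubb3*, a neuronal tubulin, was called higher in Dio3-/- hearts, with a log2 change of 0.65 (adjusted *P* = 0.0086 by limma).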
